A study of Mus musculus with 24 samples.

Results

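Cerebellins are small secreted glycoproteins of the C1q family that organise synapses. They are released into the synaptic cleft, where they bind neurexins on the presynaptic membrane and, on the postsynaptic side, glutamate receptors of the delta class, so that both membranes are held together by a bridge of 3 proteins. Cbln4 is known to differ from its relatives in that it also binds Dcc, the receptor of the axon guidance cue netrin, and in the cortex its transcript is known mainly from somatostatin interneurons. The genes described here are the 4 cerebellin genes Cbln1, Cbln2, Cbln3 and Cbln4, the neurexin genes Nrxn2 and Nrxn3, the delta receptor gene Grid1, and Dcc, 8 of the 18820 genes with a level in the table. Each gene was read from the probe set annotated to its symbol alone, and where several such probe sets existed, from the brightest by mean over the arrays.

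Whole-transcript arrays were run on 24 samples of prefrontal cortex, each taken here as 1 mouse. All were from males of the C57BL6/J background, 8 weeks old. Mutants carried the deletion labelled Df16(A)+/-, a heterozygous deficiency of the mouse segment that corresponds to human 22q11.2, and the controls were wild-type littermates, with 12 mice in each group. No other allele or treatment is labelled, and the tissue was bulk cortex, in which fewer cells of a type and less RNA per cell cannot be told apart. Values are log2 expression levels, so a difference of 1 would be a doubling.

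The set was drawn around Cbln4 because its genotype difference was already known from these arrays, so the mutant against wild-type values of the 8 genes are given as descriptions, with standard errors and without p-values. Tested below are levels of other genes of the same ligand and receptor system, and how the 8 genes varied together within genotypes. The choice of the 8 did not use that joint variation. The lists of other genes were drawn up with earlier results of these data known, so their test is not free of those results.

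Facts of the arrays come first. Of 10 listed genes of the deleted segment 9 were measured, and all 9 were lower in mutants (limma, adjusted p under 0.05), with a list mean between 9.02 and 9.10 in mutants and between 9.73 and 9.83 in wild types. Pairwise correlations between arrays lay between 0.994 and 0.997. The mutants of replicates 5, 9 and 10 lay farthest out on the first principal component, which held 14.7% of the variance, and are called the 3 outlying arrays. Values of markers are given next, but values of different probe sets do not rank genes by amount of transcript. In wild types Tbr1 of the deep-layer list had 10.83 ± 0.07 (SD, n = 12) and Cux2 of the upper-layer list 10.21 ± 0.07. Foxp2 and Nxph4, also of the deep-layer list, had 7.69 ± 0.20 and 5.16 ± 0.25. The cerebellar granule cell gene Gabra6 had a value of 4.80 ± 0.23, while Zic2 of the same cerebellum list had 9.09 ± 0.21. These markers were named as examples, outside the rule for named genes. The table carries no detection call, so no gene could be called absent.

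The stretches of genomic sequence in front of Cbln4 and Nrxn3 are shown because these were the genes whose levels moved in opposite directions among mice of one genotype, and because Nrxn3 has several starts that a single probe set cannot separate. They are RefSeq sequences of build GRCm38.p6, each the 250 bases before a start listed there. They are written 5′ to 3′ along the gene, with motif matches in capitals. Of the 8 genes, 3 have entries in the table used, Cbln3 among them. The searched motifs, on both strands, were the GC box (GGGCGG or CCGCCC), the CCAAT box (CCAAT or ATTGG), the TATA box (TATAAA or TTTATA) and the cyclic AMP response element (TGACGTCA).
Cbln4, chr2:172043467-172043716, minus strand: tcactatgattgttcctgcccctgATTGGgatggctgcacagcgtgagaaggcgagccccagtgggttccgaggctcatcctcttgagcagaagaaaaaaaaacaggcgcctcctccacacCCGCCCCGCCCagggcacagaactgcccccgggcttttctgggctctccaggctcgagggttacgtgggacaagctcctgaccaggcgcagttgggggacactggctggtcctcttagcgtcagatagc
Nrxn3 start 1, chr12:88794254-88794503, plus strand: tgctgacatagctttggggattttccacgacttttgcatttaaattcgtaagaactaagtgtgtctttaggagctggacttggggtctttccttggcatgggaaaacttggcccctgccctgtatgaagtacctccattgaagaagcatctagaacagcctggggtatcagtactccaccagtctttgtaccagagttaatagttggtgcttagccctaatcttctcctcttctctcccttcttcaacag
Nrxn3 start 2, chr12:88953140-88953389, plus strand: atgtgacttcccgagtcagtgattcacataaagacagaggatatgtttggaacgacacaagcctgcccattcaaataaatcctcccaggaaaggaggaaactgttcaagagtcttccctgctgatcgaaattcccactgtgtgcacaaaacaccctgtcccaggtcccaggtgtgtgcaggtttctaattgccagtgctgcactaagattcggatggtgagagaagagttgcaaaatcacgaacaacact
Nrxn3 start 3, chr12:89812233-89812482, plus strand: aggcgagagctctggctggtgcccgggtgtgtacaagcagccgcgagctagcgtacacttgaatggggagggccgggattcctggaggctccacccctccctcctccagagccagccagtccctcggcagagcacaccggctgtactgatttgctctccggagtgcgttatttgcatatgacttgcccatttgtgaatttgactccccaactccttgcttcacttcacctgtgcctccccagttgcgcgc

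The Cbln4 stretch held a pair of GC boxes, beginning at positions -129 and -124 from the start site and overlapping by 1 base, and a CCAAT box on the opposite strand at -226. Neither the TATA box nor the cyclic AMP response element was found in it. None of the 4 motifs was found in the 3 Nrxn3 stretches. Over the 32851 promoter stretches of the same length, 32.7% held a GC box, 33.8% a CCAAT box, 12.4% a TATA box and 1.55% the cyclic AMP response element. The Cbln4 stretch held 11 CG dinucleotides and the Nrxn3 stretches 2, 5 and 12, from the first start to the last. A match to these letters does not show that a factor binds there. Whether transcription begins at each listed start was not tested, so the Nrxn3 stretches may not all be promoters.

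Among the ligands, Cbln4 was lower in mutants. In the 12 mutants its level ran from 7.47 through a median of 7.68 to 7.95, and in the 12 wild types from 7.73 through 7.91 to 8.28. The groups overlapped: 7 mutants lay below the lowest wild type, which was replicate 2, and 5 wild types lay above the highest mutant, which was replicate 8. The other 11 mutants all lay below the wild-type median. The means were 7.69 ± 0.12 (SD, n = 12) and 7.97 ± 0.16, a log2 fold change of -0.29 ± 0.06 (SE), or a fold of 0.819. Of all genes, 99.3% had a smaller absolute difference between the genotypes, while the spread of Cbln4 among mice of one genotype was ordinary, larger than that of 64.6% of genes.

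In the limma fit over all genes Cbln4 was past the adjusted threshold of 0.05 and the other 7 were not, 1 of 8, beside 0.76% of all 18820 genes (143 genes); 0.228% of all genes were called lower and 0.531% higher. The count of 1 repeats the reason for the choice and is no evidence about the set. Without the 3 outlying arrays, an alternative added with the data in view, Cbln4 had a log2 fold change of -0.25 ± 0.06 (SE) and was no longer called, so that none of the 8 was. The 3 mice had Cbln4 levels of 7.47, 7.60 and 7.64 and were among the 4 lowest mutants. Over arrays 1 to 12, with 7 mutants and 5 wild types, the log2 fold change was -0.24 ± 0.07, and over arrays 13 to 24, with 5 and 7, it was -0.29 ± 0.08, and no member was called in either of these smaller fits.

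Cbln2, the cerebellin gene known for its expression in excitatory neurons of the frontal cortex, had the next largest difference in the same direction. Its level in mutants ran from 9.36 through a median of 9.57 to 9.74, and in wild types from 9.52 through 9.65 to 9.84. Here too 11 of 12 mutants lay below the wild-type median, and 5 lay below the lowest wild type. The log2 fold change was -0.14 ± 0.05 (SE), a fold of 0.905, with -0.17 ± 0.05 in arrays 1 to 12 and -0.10 ± 0.07 in arrays 13 to 24. Without the 3 outlying arrays the Cbln2 value was -0.15 ± 0.05.

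Cbln1, the founding member, best known at the synapses of cerebellar granule cells, had ranges that nearly coincided. Its level in mutants ran from 6.41 through a median of 6.66 to 7.01, and in wild types from 6.38 through 6.71 to 6.96. The log2 fold change of -0.05 ± 0.07 (SE) was smaller than its error, and its sign turned from -0.11 in arrays 1 to 12 to 0.03 in arrays 13 to 24.

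Cbln3, which leaves the endoplasmic reticulum only in complex with Cbln1, was the most variable of the 8, with a spread among mice of one genotype larger than that of 98.6% of genes. In mutants it ran from 5.43 through a median of 5.84 to 6.88, and in wild types from 5.45 through 5.80 to 6.07. The mutant of replicate 1, at 6.88, stood apart from the next mutant, replicate 11, at 6.16. The log2 fold change was 0.07 ± 0.12 (SE), and it was -0.02 without that mouse, so the sign of the Cbln3 value rests on 1 animal.

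**Figure D1:**
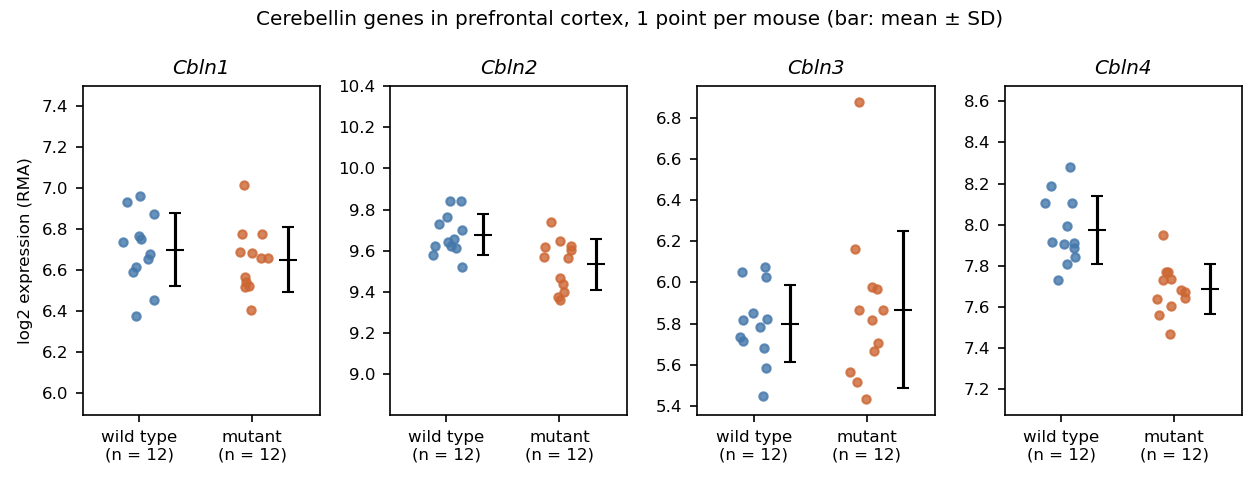
Log2 expression level (vertical axis, RMA) of the 4 cerebellin genes in 12 wild-type and 12 mutant mice, with 1 point per mouse and the mean ± SD beside it; all panels cover the same log2 span. The mutant points of Cbln4 (7.47 to 7.95) and Cbln2 (9.36 to 9.74) sit lower than the wild-type points but overlap them, and the Cbln3 mutant at 6.88 stands alone.

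On the receptor side, the presynaptic neurexins had small values in the other direction. Nrxn2 in mutants ran from 11.14 through a median of 11.26 to 11.38, and in wild types from 11.13 through 11.21 to 11.27. The mutants were more spread out, with an SD of 0.08 against 0.04, and 5 of them lay above the highest wild type while none lay below the lowest. The log2 fold change was 0.07 ± 0.03 (SE), 0.07 over each set of arrays. Nrxn2 has a second probe set with its symbol alone, dimmer, for which the mutant mean of 8.47 ± 0.15 (SD, n = 12) and the wild-type mean of 8.45 ± 0.08 differed by 0.02.

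Nrxn3 in mutants ran from 11.68 through a median of 11.78 to 11.82, and in wild types from 11.63 through 11.71 to 11.80. In Nrxn3, 11 of 12 mutants lay above the wild-type median, though 3 lay above the highest wild type. The log2 fold change was 0.06 ± 0.02 (SE), with 0.07 ± 0.04 over arrays 1 to 12 and 0.03 ± 0.03 over arrays 13 to 24. Neurexin genes make long and short proteins from separate starts and many splice forms, including the insert that cerebellins need for binding, and a level per gene does not separate these.

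Grid1 encodes the delta receptor of the forebrain, the postsynaptic end of the bridge. Its level ran from 10.14 through a median of 10.18 to 10.21 in mutants and from 10.06 through 10.20 to 10.24 in wild types. It was the steadiest of the 8: 2.45% of all genes had a smaller spread among mice of one genotype. Its log2 fold change was -0.0018 ± 0.0213 (SE). Of the wild types 4 lay above the highest mutant, and the wild-type range enclosed that of the mutants.

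Dcc ran from 8.57 through a median of 8.74 to 8.90 in mutants and from 8.53 through 8.68 to 8.77 in wild types. Of the mutants 5 lay above the highest wild type, and the rest were spread through the wild-type range. The log2 fold change of Dcc was 0.07 ± 0.03 (SE), and 0.06 over each set of arrays.

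**Figure D2:**
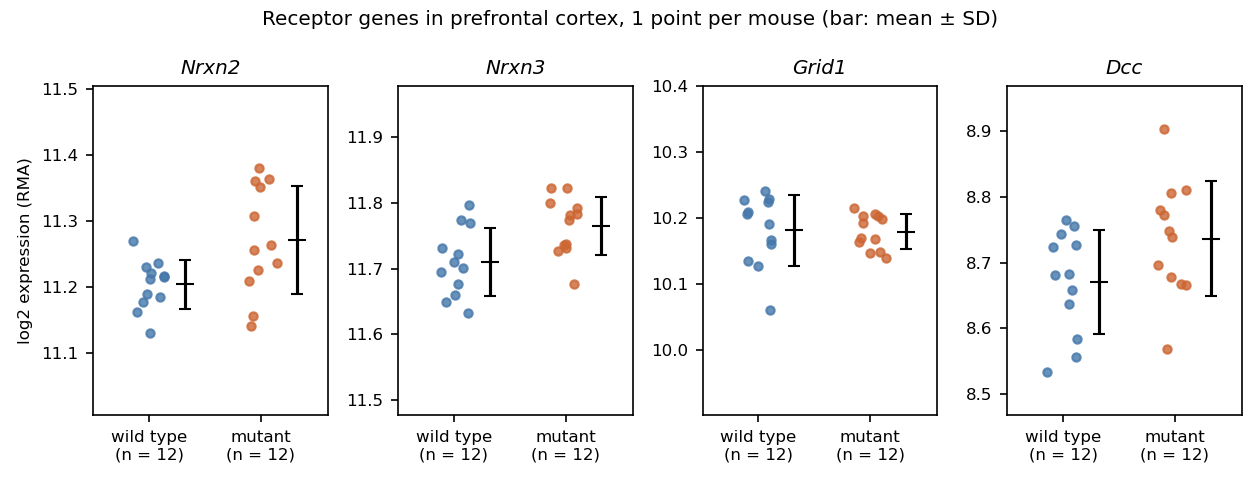
Log2 expression level (vertical axis, RMA) of Nrxn2, Nrxn3, Grid1 and Dcc in 12 wild-type and 12 mutant mice, with 1 point per mouse and the mean ± SD beside it; all panels cover the same log2 span, which is narrower than that of the cerebellin plot. Mutant points of Nrxn2, Nrxn3 and Dcc reach above the wild-type points, and those of Grid1 (10.14 to 10.21) lie within the wild-type range.

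**Figure D3:**
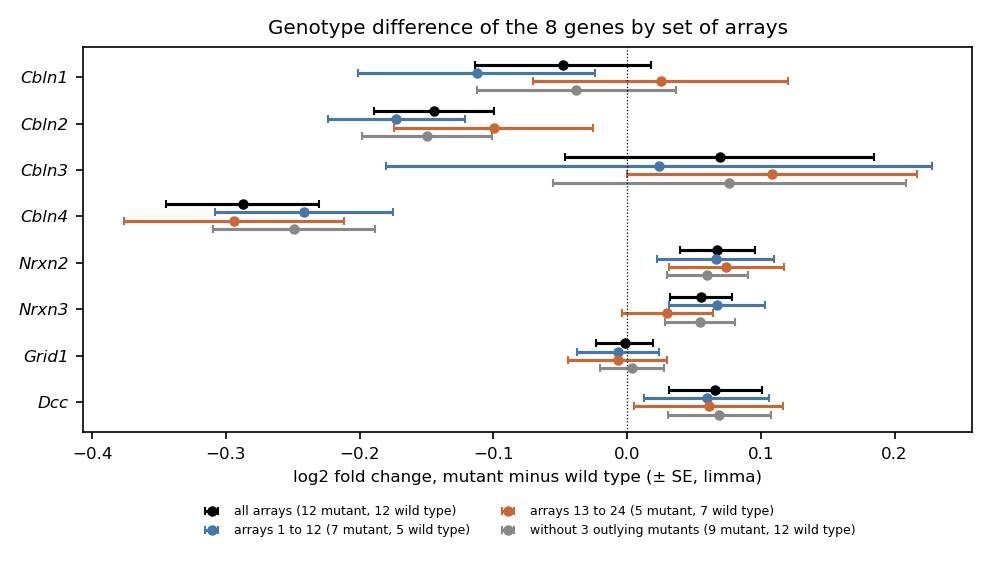
Log2 fold change of mutants over wild types (horizontal axis, ± SE from limma) for the 8 genes over all arrays, arrays 1 to 12, arrays 13 to 24, and without the 3 outlying mutant arrays. Cbln4 and Cbln2 lie below 0 in each set, Cbln4 between -0.29 and -0.24, and Nrxn2, Nrxn3 and Dcc lie above 0 in each.

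The variation among mice of one genotype was then used to ask which of the 7 other genes followed Cbln4 from animal to animal. Each level was taken as its deviation from the genotype mean, so the genotype difference that chose the set plays no part. Cbln2 followed Cbln4 most closely: mice high in Cbln4 were high in Cbln2, with Pearson r = 0.64 and Spearman rho = 0.55 over 24 mice (two-sided permutation test within genotypes, p = 0.00047 and 0.00542; 0.00329 and 0.019 after Benjamini-Hochberg adjustment over 7 relations). Nrxn3 ran the other way, with r = -0.58 and rho = -0.63 (permutation p = 0.00503 and 0.00199; adjusted 0.0176 and 0.0139). The other 5 genes had r between -0.14 and 0.14 and adjusted permutation p of at least 0.87.

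Both relations kept their direction in each genotype. For Cbln2, r was 0.81 in the 12 wild types and 0.49 in the 12 mutants (permutation p = 0.00153 and 0.1), and for Nrxn3 it was -0.68 and -0.42 (permutation p = 0.0147 and 0.174). Spearman rho in wild types and mutants was 0.63 and 0.21 for Cbln2, and -0.75 and -0.46 for Nrxn3. By rank the Cbln2 relation was therefore weak in mutants. Whether the genotypes differ in this was not tested. Without the mice farthest from the median of the other gene, 2 for each relation, r was 0.67 for Cbln2 and -0.61 for Nrxn3. For Cbln2 these were the mutants of replicates 8 and 11. Without the mutant of replicate 8 alone, the highest mutant in both Cbln4 and Cbln2, r with Cbln2 was 0.565. By array set, r with Cbln2 was 0.57 in arrays 1 to 12 and 0.69 in arrays 13 to 24 (12 mice each, permutation p = 0.0348 and 0.0233), and r with Nrxn3 was -0.46 and -0.61 (permutation p = 0.215 and 0.0502). The p-values within 1 genotype or 1 array set are unadjusted. With deviations taken from the mean of genotype and array set together, r with Nrxn3 was -0.525 and no longer passed (adjusted permutation p = 0.0628), while r with Cbln2 was 0.65 (adjusted permutation p = 0.0166).

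The first component of the within-genotype deviations over all genes held 13.9% of their variance and had r = 0.41 with Cbln4, 0.20 with Cbln2 and -0.15 with Nrxn3. After it was taken out of each gene, an alternative added after the data were seen, r was 0.62 for Cbln2 and -0.57 for Nrxn3 (adjusted permutation p = 0.00581 and 0.0171).

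**Figure D4:**
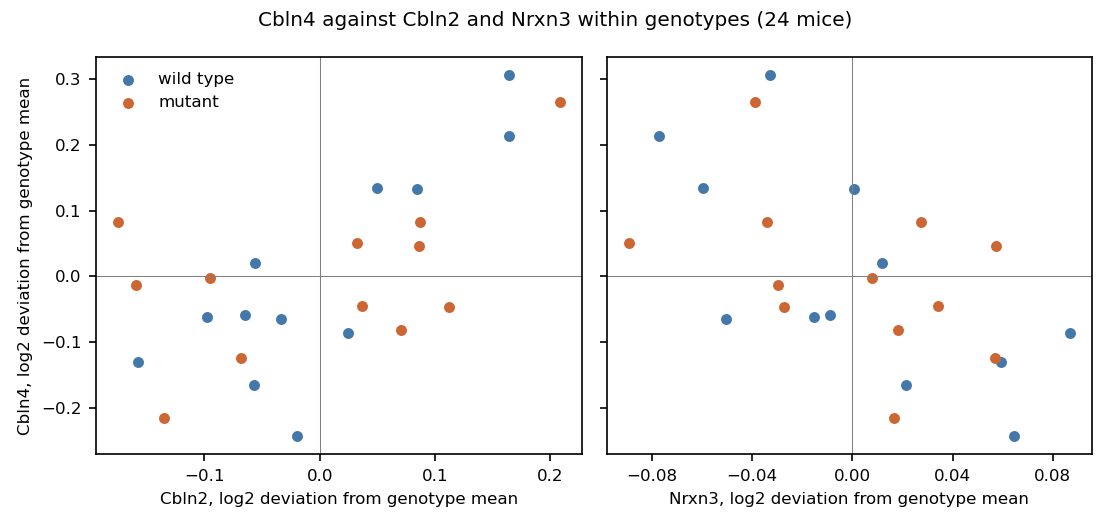
Deviation of Cbln4 from its genotype mean (vertical axis, log2) against the deviation of Cbln2 (left) and Nrxn3 (right), with 1 point per mouse, 12 wild types and 12 mutants. Over all mice the points rise to the right for Cbln2 (r = 0.64) and fall to the right for Nrxn3 (r = -0.58). The rise for Cbln2 is less clear among the mutants (r = 0.49, Spearman rho = 0.21).

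Cbln1 and Dcc, a ligand and a receptor with r = 0.14 and 0.03 to Cbln4 over all mice, had opposite signs in the array sets. For Cbln1, r was -0.60 in arrays 1 to 12 and 0.68 in arrays 13 to 24 (unadjusted permutation p = 0.0633 and 0.0225), and for Dcc it was -0.585 and 0.59 (unadjusted permutation p = 0.091 and 0.0474). The mutant of replicate 8, in arrays 13 to 24, was the highest mutant in Cbln4, Cbln1 and Dcc. Without it, r over the remaining mice of both sets was -0.075 for Cbln1 and -0.184 for Dcc. The difference between the sets was not tested. Over all 28 pairs of the 8 genes, a family added after the data were seen, 1 pair passed after adjustment, Cbln4 with Cbln2 (adjusted permutation p = 0.0132). Cbln4 with Nrxn3 and Cbln1 with Dcc (r = 0.55) both had an adjusted permutation p of 0.0665, and Cbln1 with Nrxn2 (r = -0.49) one of 0.0799.

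Set against other genes, Cbln2 and Nrxn3 were near both ends of the order of likeness to Cbln4. Of 9404 genes with a mean level above the median, 99.8% had a lower r with Cbln4 than Cbln2 and 0.1% a lower r than Nrxn3. The genes most like Cbln4 over the 24 mice were Tars, the threonyl-tRNA synthetase (r = 0.78), 5031439G07Rik (0.76), the retinoid X receptor gene Rxrb (0.75), the calcineurin inhibitor gene Rcan1 (0.75) and Hif1an, an inhibitor of hypoxia-inducible factor (0.73). The least like were Cblb, a ubiquitin ligase gene (r = -0.68), the GABA-A receptor subunit gene Gabrg3 (-0.65) and the protease gene Adamts8 (-0.64). None of these 8 genes passed the limma test of genotype, with adjusted p between 0.375 and 0.972. Tars and Hif1an also followed the first within-genotype component (r = 0.57 and 0.48), while 5031439G07Rik had an r of 0.02 with it.

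Of 56 other genes of the system listed by role, 50 were measured. None passed the test of mutants against wild types (limma over all genes, adjusted p under 0.05), 5 had an unadjusted p under 0.05 (10%, against 11.9% of all genes), and their median log2 fold change was 0.0034, against -0.0014 for all genes.

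The C1q-like proteins are relatives of the cerebellins that bind the adhesion receptor Adgrb3. Of 4 measured genes of this list none passed. C1ql2 had a log2 fold change of 0.10 ± 0.08 (SE) and C1ql4 one of -0.06 ± 0.07 (limma, adjusted p = 0.66 and 0.776).

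The list of neurexin partners, which holds neuroligins, leucine-rich repeat receptors, neurexophilins, calsyntenins and the adaptors on the cytoplasmic tail of neurexins, had 20 measured genes and none that passed, with 10 values on each side of 0. The adaptor Apba1 had 0.06 ± 0.02 (SE) and Lrrtm4, a postsynaptic receptor for neurexins, 0.05 ± 0.02 (limma, adjusted p = 0.307 and 0.392). Of the 3 RNA-binding proteins that control the neurexin splice insert, none passed. Khdrbs1 had -0.05 ± 0.02 and Khdrbs2 0.0094 ± 0.0468 (adjusted p = 0.425 and 0.961).

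Among 6 measured partners of the delta receptors none passed. Grid2ip, a postsynaptic scaffold, had the largest value of the partner genes above 0, at 0.16 ± 0.06 (SE), and Homer1, a scaffold of metabotropic glutamate receptors, had -0.04 ± 0.03 (limma, adjusted p = 0.246 and 0.673). Of 17 measured genes of the netrin receptor pathway none passed either. Nck1, an adaptor that binds the tail of Dcc, had -0.15 ± 0.05, and Ntn4, a netrin gene, -0.13 ± 0.06 (adjusted p = 0.157 and 0.382). Without the mutant of replicate 4 Nck1 had a log2 fold change of -0.18 and passed (limma, adjusted p = 0.0462). Neo1, the paralogue of Dcc, named outside the rule for named genes, had 0.02 ± 0.02 (adjusted p = 0.765).

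**Figure D5:**
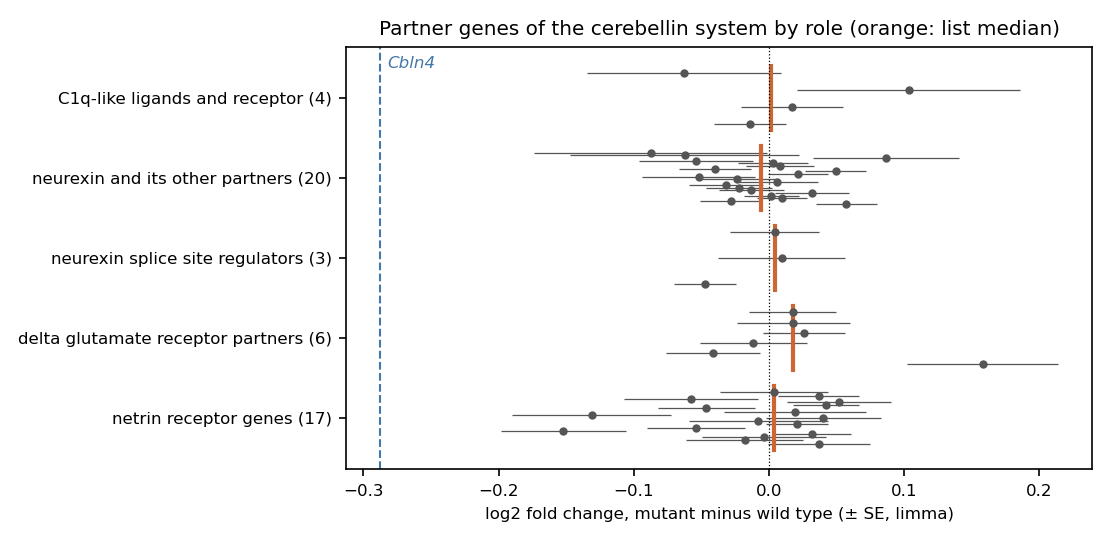
Log2 fold change of mutants over wild types (horizontal axis, ± SE from limma) for the 50 measured partner genes, grouped by role with the number measured in brackets; the orange bar is the median of each list and the dashed line the Cbln4 value of -0.29. All 50 points lie to the right of that line, between -0.15 and 0.16. Cbln4 was chosen for its difference, and 99.3% of all genes had a smaller absolute one. The position of the points beside the line is therefore no result about the partners.

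The neighbours of Cbln4 on chromosome 2 were followed as a check on its surroundings. Of the 5 measured genes on each side by the order of the gene table, none of 10 passed (limma over all genes; 0 with an unadjusted p under 0.05), and 5 lay above and 5 below 0. The nearest were Dok5, an adaptor of receptor tyrosine kinases, with -0.03 ± 0.05 (SE), and Mc3r, a melanocortin receptor gene, with 0.03 ± 0.06 (adjusted p = 0.855 and 0.887).

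Markers of the cell types and regions that the dissection could hold were read beside the Cbln4 value. Of 104 measured markers none passed (limma, adjusted p under 0.05), and 14 had an unadjusted p under 0.05 (13.5%, against 11.9% of all genes). All 10 listed markers of somatostatin interneurons were measured and 8 of them lay above 0, with a median log2 fold change of 0.05. Sst itself, the neuropeptide of these cells, had 0.08 ± 0.04 (SE; adjusted p = 0.469), and the mean over the list ran from 8.91 to 9.02 in mutants and from 8.78 to 9.05 in wild types. Neither set of list means lay apart from the other. Of the 12 measured markers of other interneurons, 10 also lay above 0, and of all genes 51% lay below 0.

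Medians of the other lists were 0.04 for other interneurons, 0.02 for upper and -0.06 for deep cortical layers, 0.0089 for claustrum, 0.02 for striatum, 0.0013 for septum and olfactory bulb, 0.0016 for thalamus and 0.0052 for cerebellum. Non-neuronal lists had medians of 0.0063 for astrocytes, -0.05 for oligodendrocytes, -0.0003 for microglia and -0.01 for endothelium. The 4 measured blood markers all lay below 0, with a median of -0.56. Their mean ran from 5.69 to 6.68 in mutants and from 6.08 to 8.94 in wild types. The granulocyte genes Ngp, S100a8 and S100a9 had -1.20 ± 0.43, -0.67 ± 0.32 and -0.46 ± 0.21 (SE). Ngp had an SD of 1.44 in wild types and 0.67 in mutants. The red cell gene Alas2 had -0.05 ± 0.15, and the listed haemoglobin genes were not analysed here. These genes were named outside the rule for named genes. The part of tissue composition in the Cbln4 value was not tested.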

How the data were processed

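Total RNA from the prefrontal cortex was extracted with a miRNeasy kit and labelled from 100 ng with a whole-transcript sense kit for an Affymetrix array, per the labels' protocols. The authors deposited log2 expression values, 1 per probe set and array, made with RMA per the submitters' processing notes; no version or genome build is given in those notes. The scale was read from the values (1.82 to 14.49, array medians 6.71 to 6.82).

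Of 35556 probe sets, 21218 had 1 gene symbol, giving 18820 genes; for the 1386 with several probe sets the brightest was used. Symbols were updated through a RefSeq table of GRCm38.p6, which matched 18790 genes. Of the 56 listed partner genes, 6 were not analysed here.

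Genotypes were compared by linear models with genotype as the single term (limma 3.58.1, moderated by eBayes, R 4.3.3), with Benjamini-Hochberg adjustment over all genes and a threshold of 0.05. Correlations used deviations from genotype means and 100000 permutations of mice within genotypes (Python 3.11.15, numpy 2.4.6). Both steps were tested on simulated data. Alternatives covered normalization, variance moderation, array weights, filters, rows per gene, array order, a replicate block and leaving out mice.

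The 8 genes and the lists were chosen with earlier results of these data known. Named genes were the 8, the 2 partners of each list with the smallest p, Sst, the nearest neighbours, and the 5 genes most and 3 least like Cbln4. The genotypes share replicate numbers 1 to 12. The labels do not say that a number marks a litter, so the numbers were not treated as pairs. Same-numbered mice had correlations of deviations between -0.08 and 0.31, with a median of 0.09 against -0.01 for different numbers. Whether same-numbered mice share an origin was not tested. The labels call each array a replicate and do not say that each came from its own mouse. Each array is taken here as 1 mouse, and p-values measure the spread between these samples.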

Additional observations from a re-analysis of the deposited data

How the results depend on the processing

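The log2 fold changes of the 8 genes moved by less than 1 SD between mice of one genotype under every alternative run. That limit is wide, 0.14 for Cbln4 beside an SE of 0.06, and leaving out 1 mouse could hardly pass it. Cbln4 lay between -0.31 and -0.24. The sign was not kept for Cbln1 (-0.11 to 0.03), Cbln3 (-0.02 to 0.11) and Grid1 (-0.0129 to 0.0101). The number of the 8 genes called was 1 in the fit as reported and under the other alternatives, but 0 over arrays 1 to 12, 0 over arrays 13 to 24 and 0 without the 3 outlying arrays. Over all genes, 100 higher and 43 lower genes became 35 and 23 over arrays 1 to 12 and 35 and 22 over arrays 13 to 24, fits with fewer mice; the lower count was 66 with a variance trend and 75 when genes below the median level were left out, and the cause was not tested. Leaving out 1 mouse in turn gave 0 to 1 partner genes called, the 1 being Nck1. The correlation of Cbln4 with Nrxn3 was -0.525 with deviations from genotype and array set and lost its call there; that with Cbln2 kept its call under each alternative run, at 0.565 to 0.734 when 1 mouse was left out. With a replicate block, 110 genes were higher and 37 lower, 1 of the 8 genes and 0 partner genes were called, and no other call changed; 2 of 12 mutants correlated best with the wild type of their own number. The number of arrays limits the precision. Background signal on dim probe sets such as Cbln3 may limit it too, which was not tested.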
